A study of Mus musculus with 32 samples.

Results

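The peroxide and superoxide defence enzymes described here are 10 mouse genes: the peroxiredoxins Prdx1, Prdx2, Prdx3, Prdx5 and Prdx6, the glutathione peroxidases Gpx1 and Gpx4, the superoxide dismutases Sod1 and Sod2, and catalase, Cat. Every array probe whose platform gene symbol is one of these names was taken, whatever its signal. This gave 12 of the 25697 probes on the array, for 8 of the 10 genes. Prdx5 and Prdx6 had no probe under those symbols in the platform table and were not analysed here. Prdx2 had 3 probes, Prdx1 and Gpx4 had 2 each, and the other 5 genes had 1 each. Probes were picked by gene name and by no measured value, but the genes themselves were chosen with earlier results of these data known.

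Superoxide, which leaks mainly from the respiratory chain and from oxidases, is turned into hydrogen peroxide by superoxide dismutases, Sod1 in the cytosol and Sod2 in the mitochondrial matrix. Peroxide is then removed by catalase in peroxisomes, by glutathione peroxidases with glutathione as the reductant, and by peroxiredoxins, most of them with thioredoxin as the reductant. Brain and skeletal muscle both use much oxygen, and in both the enzymes limit peroxide damage and also shape peroxide signalling.

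The arrays came from female C57BL/6J mice of 23 months. Mice were injected with saline for 3 days, or with AICAR at 500 mg/kg/day over 3, 7 or 14 days, and tissue was collected after saline perfusion, 33 days beyond the end of dosing. AICAR is a nucleoside that enters cells and, once phosphorylated, switches on AMP-activated protein kinase. By its title the series asks how the compound affects cognition and movement, and its arrays are of aged mice only. Hippocampus and gastrocnemius muscle were each profiled on 16 arrays, 4 per treatment. Since saline was given for 3 days only, more injections and more AICAR cannot be told apart at 7 and 14 days. The labels do not say that the 4 arrays of a group are separate animals, so p-values measure the spread between these samples, which may be technical.

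The promoter windows of 4 members are printed here because they span the outcomes below: Prdx1 and Sod1 rose in hippocampus, Cat rose in both tissues, and Gpx1 passed no test with AICAR. Each window runs from 250 bases before to 50 bases after the start of the gene in RefSeq (build GRCm38.p6), and 9 of the 10 members had one, Prdx6 being the exception. Capitals mark exact matches on either strand to 5 motifs: the core of the antioxidant response element TGACNNNGC bound by NRF2, the NRF1 site GCGCNNGCGC, the forkhead core GTAAACA, the GC box GGGCGG and the TATA box TATAAA.
Prdx1, chr4:116685349-116685648, plus strand: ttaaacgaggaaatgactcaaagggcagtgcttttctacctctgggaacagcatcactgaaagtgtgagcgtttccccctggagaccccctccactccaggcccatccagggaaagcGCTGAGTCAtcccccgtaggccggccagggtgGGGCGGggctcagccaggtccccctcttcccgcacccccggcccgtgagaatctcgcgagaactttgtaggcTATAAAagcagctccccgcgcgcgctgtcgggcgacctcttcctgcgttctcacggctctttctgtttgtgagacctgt
Sod1, chr16:90220512-90220811, plus strand: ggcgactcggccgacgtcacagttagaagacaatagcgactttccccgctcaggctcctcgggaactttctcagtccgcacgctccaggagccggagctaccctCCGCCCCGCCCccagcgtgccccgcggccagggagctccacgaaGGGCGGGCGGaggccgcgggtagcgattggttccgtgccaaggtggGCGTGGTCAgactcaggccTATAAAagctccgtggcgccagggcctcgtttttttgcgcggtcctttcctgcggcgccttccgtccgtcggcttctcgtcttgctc
Cat, chr2:103485104-103485403, minus strand: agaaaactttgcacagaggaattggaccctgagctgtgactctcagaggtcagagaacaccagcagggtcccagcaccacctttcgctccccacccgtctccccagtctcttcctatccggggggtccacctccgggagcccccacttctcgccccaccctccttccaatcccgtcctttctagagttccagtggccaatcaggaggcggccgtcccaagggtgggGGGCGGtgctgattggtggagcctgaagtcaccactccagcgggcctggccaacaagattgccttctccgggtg
Gpx1, chr9:108338830-108339129, plus strand: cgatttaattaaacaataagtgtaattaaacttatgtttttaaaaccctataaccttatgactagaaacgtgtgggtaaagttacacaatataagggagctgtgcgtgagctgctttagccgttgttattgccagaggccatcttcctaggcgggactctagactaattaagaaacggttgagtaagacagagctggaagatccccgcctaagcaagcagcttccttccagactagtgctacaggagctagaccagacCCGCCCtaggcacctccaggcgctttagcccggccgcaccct
The Prdx1 window holds the antioxidant response core at base -133 from the start, on the minus strand, and the Sod1 window holds it at base -56 on the minus strand. The 9 members have 12 windows, 4 of them for Gpx4, among 32851 in the table. The antioxidant response core is in 2 of the 12 and in 12.4% of all windows. It is absent from the windows of Prdx3, Gpx4, Sod2 and Cat, which were also called higher in hippocampus at 14 days. A GC box is in 11 of the 12, all but 1 Gpx4 window, and in 35.7% of all, and a TATA box in 3 (Prdx1, Prdx3 and Sod1) and in 13.6% of all. In these windows GC boxes overlap each other where they run on, as in Sod1. The NRF1 site is in 2 of the 12 and in 6.23% of all windows. Both are overlapping windows of Gpx4 that share the same site, so it is in 1 of the 9 genes. The forkhead core is in 0 of the 12 and in 3.65% of all. GC content was 60.7% in Prdx1, 66.7% in Sod1, 62% in Cat and 47% in Gpx1, with a median of 52.7% over all windows. A match of letters is a description and shows no binding.

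The values below are log2 intensities after background correction and quantile normalization within a tissue, and a change is the AICAR mean minus the saline mean with its standard error (SE). A probe was tested if it was detected on at least 4 of the 16 arrays of the tissue, and a change was called at an adjusted p below 0.05 (limma, Benjamini-Hochberg over all tested probes). Of the 12 member probes, 11 passed in hippocampus and 10 in muscle. The dim Prdx1 probe 2 was tested in neither tissue and the dim Gpx4 probe 2 only in hippocampus. In both tissues the 7- and 14-day arrays stood apart from the saline and 3-day arrays in background signal, at 150.8 to 178 against 121 to 141. The labels number the samples in 4 runs of 8, each with 1 treatment in both tissues, so treatment cannot be told apart from any handling in that order. An array detected 11695 to 13225 probes. The tissue labels fitted the markers in part: Rbfox3 and Syt1 were detected on every hippocampal array and on no muscle array, all 5 muscle fibre markers on every muscle array, and the probes for Snap25, Tubb3 and Nefl on none. The part of the background signal in the results was not tested.

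In hippocampus, 5 of the 8 genes with a probe rose at 7 days of AICAR and 6 rose at 14 days, counted on the brightest probe of each gene, and none fell. The 5 were Prdx1, Gpx4, Sod1, Sod2 and Cat, with Prdx3 added at 14 days. By probe, 7 of 11 were called higher and 0 lower at 7 days, where 13.1% of the 13659 tested probes were called higher and 14% lower. At 14 days 7 of 11 were again called higher and 0 lower, against 13.7% and 15.9% of tested probes. At each of these durations 7 of 11 probes had all AICAR arrays above all saline arrays, as did 13.7% of tested probes at 7 days and 14% at 14 days. Under median scaling 5 were called higher and 1 lower at 7 days, and 4 higher and 1 lower at 14 days. Of all 13659 tested probes it called 2944 at 7 days (71% of them higher) and 3309 at 14 days (48%). With quantile normalization the median change of the 11 member probes was 0.43 at 7 days and 0.50 at 14 days. Over all tested probes it was -0.03 and -0.04. At 3 days of AICAR limma called 0 of 11, as it called 0% of all probes (6.03% had an unadjusted p below 0.05). The member with the smallest unadjusted p there was Gpx4, 0.25 ± 0.08 higher with an adjusted p of 0.694. All 3 comparisons use the same 4 saline arrays. In whole tissue, a change in the number of cells of a type and a change in RNA per cell cannot be told apart.

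**Figure D1:**
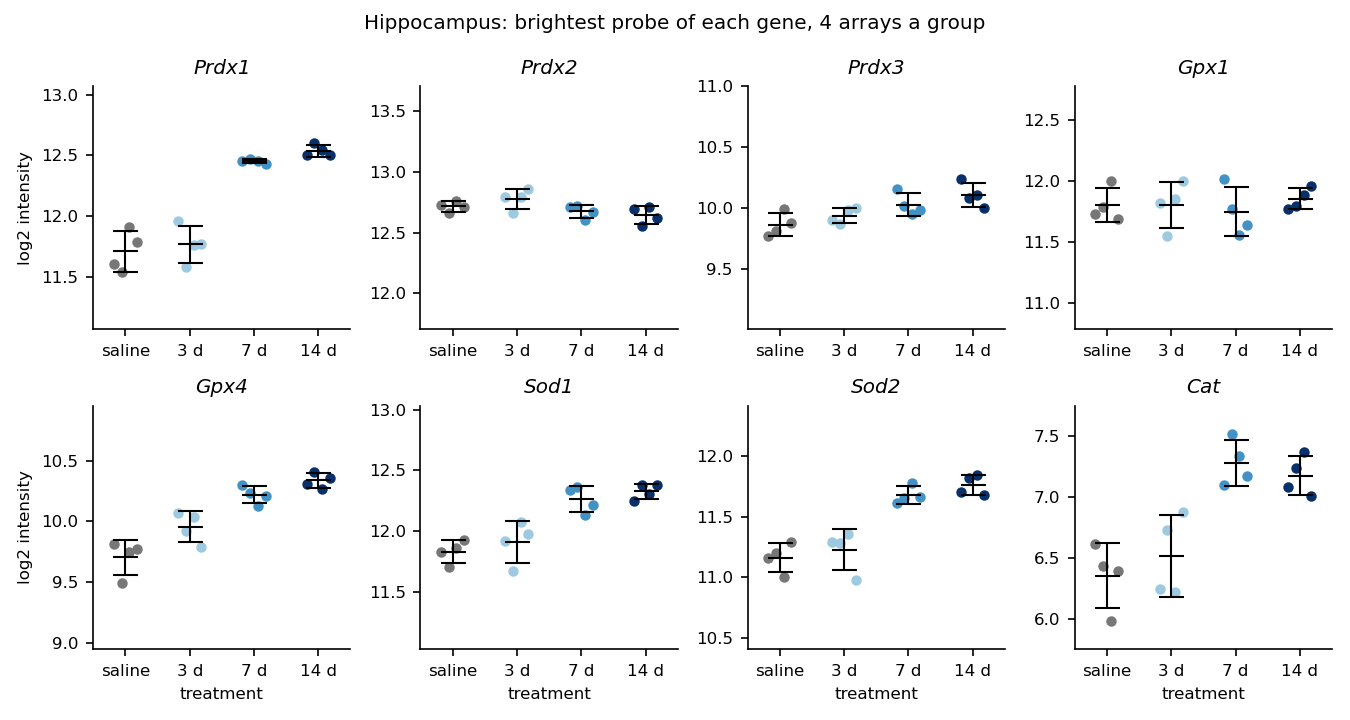
Log2 intensity of the brightest probe of each of 8 genes on the 16 hippocampal arrays (points), by treatment, with the mean and SD of the 4 arrays in black; each panel spans the same height in log2 units. For Prdx1, Gpx4, Sod1, Sod2 and Cat, all arrays of 7 and 14 days lie above all saline arrays, while Prdx2 and Gpx1 overlap.

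Prdx1, a cytosolic peroxiredoxin that also acts as a chaperone, had the smallest adjusted p of the members in hippocampus. Its bright probe (ILMN_1223738) read 11.61, 11.54, 11.91 and 11.79 on the saline arrays, 11.96, 11.58, 11.76 and 11.77 at 3 days, 12.45, 12.47, 12.45 and 12.43 at 7 days, and 12.50, 12.60, 12.54 and 12.50 at 14 days. Every array of 7 or 14 days was above every saline and 3-day array, and the 7-day arrays lay close together. The change was 0.74 ± 0.09 at 7 days (1.67-fold, adjusted p = 4.99e-05, n = 4 each) and 0.82 ± 0.09 at 14 days (1.77-fold, adjusted p = 2.02e-05). At 3 days it was 0.05 ± 0.09, with a 95% interval of -0.13 to 0.24.

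Prdx2, the cytosolic peroxiredoxin abundant in neurons and red cells, was read by 3 probes that disagreed. The brightest (ILMN_2773554) lay between 12.66 and 12.76 in saline, 12.66 and 12.86 at 3 days, 12.60 and 12.72 at 7 days, and 12.55 and 12.71 at 14 days. Those groups overlapped, and its changes of -0.04 ± 0.07 and -0.07 ± 0.07 at 7 and 14 days missed the threshold (adjusted p = 0.69 and 0.425). Median scaling in place of quantile normalization turned them into calls, at -0.29 and -0.41. The dimmest probe (ILMN_1242829) gave 6.54, 6.11, 5.95 and 6.67 in saline, 6.39, 6.53, 5.37 and 6.10 at 3 days, 7.02, 7.18, 6.87 and 7.03 at 7 days, and 7.21, 7.21, 6.77 and 7.37 at 14 days. Its 7- and 14-day arrays were all above the saline arrays. The change was 0.71 ± 0.22 at 7 days (adjusted p = 0.024) and 0.83 ± 0.22 at 14 days (1.77-fold, adjusted p = 0.0103). The 7-day call was lost when any of 3 arrays was left out, with adjusted p up to 0.0743. The remaining probe (ILMN_2638354) changed by 0.21 ± 0.07 at 7 days (adjusted p = 0.0333) and had 0.10 ± 0.07 at 14 days (adjusted p = 0.301), and the 7-day call was kept in only 1 of 8 fits that leave an array out. Whether a rise was called for Prdx2 in hippocampus thus differed by probe.

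Prdx3 is the peroxiredoxin of the mitochondrial matrix. It read 9.77, 9.81, 9.99 and 9.88 in saline, 9.90, 9.87, 9.98 and 10 at 3 days, 10.16, 10.02, 9.95 and 9.98 at 7 days, and 10.24, 10.08, 10.11 and 10 at 14 days. The 14-day arrays were all above the saline arrays by a narrow margin, and the 7-day arrays overlapped them. The change was 0.17 ± 0.07 at 7 days (adjusted p = 0.111) and 0.25 ± 0.07 at 14 days (1.19-fold, adjusted p = 0.0218). The 14-day call was lost when 14-day replicate 1, saline replicate 1 or saline replicate 2 was left out, with adjusted p up to 0.0711. It was also lost under median scaling (0.16, adjusted p = 0.262), under detected-probe scaling (0.18, adjusted p = 0.0626) and against the 3-day arrays in place of saline (0.17, adjusted p = 0.1).

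Of the glutathione peroxidases, Gpx4 rose and Gpx1 did not pass. Gpx4, the selenoenzyme that reduces lipid peroxides in membranes and guards against ferroptosis, read 9.81, 9.49, 9.75 and 9.77 in saline and 10.07, 9.92, 10.04 and 9.79 at 3 days. At 7 days it read 10.30, 10.23, 10.13 and 10.21, and at 14 days 10.31, 10.41, 10.27 and 10.36. All arrays of 7 and 14 days were above the saline arrays, and the 3-day arrays overlapped them. The changes were 0.52 ± 0.08 at 7 days (1.43-fold, adjusted p = 0.000529) and 0.63 ± 0.08 at 14 days (1.55-fold, adjusted p = 0.0001). Its dim second probe was detected on 4 arrays of 4 at 7 days, 3 at 14 days and 1 in saline, and its changes of 0.38 ± 0.20 and 0.25 ± 0.20 missed the threshold.

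Gpx1, the cytosolic and mitochondrial glutathione peroxidase, read between 11.69 and 12 in saline, 11.55 and 12 at 3 days, 11.56 and 12.02 at 7 days, and 11.77 and 11.96 at 14 days. All 4 groups overlapped. Its change was -0.06 ± 0.11 at 7 days (95% interval -0.29 to 0.18) and 0.05 ± 0.11 at 14 days (95% interval -0.19 to 0.29), the second turning to -0.21 under median scaling. These intervals leave out a change of the size measured for Prdx1, though they do not show that Gpx1 was constant.

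Both superoxide dismutases rose in hippocampus. Sod1, the copper and zinc enzyme, read 11.83, 11.71, 11.86 and 11.93 in saline, 11.92, 11.67, 12.08 and 11.98 at 3 days, 12.34, 12.36, 12.13 and 12.22 at 7 days, and 12.25, 12.38, 12.31 and 12.38 at 14 days. Its lowest array at 7 or 14 days, 12.13, stood above its highest saline array. The changes were 0.43 ± 0.09 (1.35-fold, adjusted p = 0.00266) and 0.50 ± 0.09 (1.41-fold, adjusted p = 0.000826) at 7 and 14 days. Under median scaling they were 0.25 and 0.23 and missed the threshold (adjusted p = 0.0655 and 0.09). Sod2, the manganese enzyme of the mitochondrial matrix, read 11.16, 11.20, 11 and 11.29 in saline, 11.29, 11.28, 11.36 and 10.98 at 3 days, 11.61, 11.65, 11.78 and 11.66 at 7 days, and 11.70, 11.82, 11.84 and 11.68 at 14 days. Again no array of 7 or 14 days overlapped saline. The changes were 0.51 ± 0.09 (1.43-fold, adjusted p = 0.000818) and 0.60 ± 0.09 (1.51-fold, adjusted p = 0.000245). The 14-day value was 0.36 under median scaling, with an adjusted p of 0.0545.

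Cat, the haem enzyme that splits hydrogen peroxide in peroxisomes, was dim in hippocampus but detected on all 16 arrays. Its raw intensity was 182.5 to 190.5 in saline, 158.3 to 207.8 at 3 days, 318.7 to 387 at 7 days and 261.1 to 334.6 at 14 days. As normalized log2 values these are 6.61, 6.43, 5.98 and 6.39 in saline, 6.24, 6.73, 6.22 and 6.88 at 3 days, 7.10, 7.52, 7.34 and 7.17 at 7 days, and 7.08, 7.24, 7.37 and 7.01 at 14 days. All arrays of 7 and 14 days were above all saline and 3-day arrays. The change was 0.93 ± 0.16 at 7 days (1.91-fold, adjusted p = 0.000862) and 0.82 ± 0.16 at 14 days (1.77-fold, adjusted p = 0.00173). For a probe this near background the size depended on the background step: without it the changes were 0.42 and 0.37, and both were still called.

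Between 14 and 7 days in hippocampus limma called 0 of 11 member probes, with 0% of all tested probes called and 2.96% at an unadjusted p below 0.05. Changes ranged from -0.13 to 0.12, and only Prdx1 separated, its 14-day arrays lying above its 7-day arrays (0.08 ± 0.09, adjusted p = 0.999). Of all tested probes 1.46% separated in that direction.

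Markers of other cells were read on the same hippocampal arrays. Summed intensity of 5 choroid plexus markers was 41246 to 50118 at 14 days, 4739 to 48157 at 7 days and 2994 to 42807 in saline, and 0 of 5 were called at 14 days. Summed microglial markers were 917 to 1198 at 14 days and 786 to 908 in saline. Of 4 microglial markers Tyrobp (1.09 ± 0.18) and Aif1 (0.50 ± 0.11) rose and P2ry12 (-0.57 ± 0.11) fell at 14 days. Summed astrocyte markers were 26261 to 29161 at 14 days and 31775 to 34336 in saline. Of 5 tested astrocyte markers 1 was called higher and 1 lower, where Gfap rose by 0.68 and Slc1a3 fell by 0.27. Summed neuron markers were 19100 to 21896 and 21339 to 23510, red blood cell markers 470 to 6704 and 3614 to 6273. The part of cell makeup in the changes of the enzymes was not tested.

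In gastrocnemius muscle fewer members were called than in hippocampus, except under median scaling. Median scaling called 1 of 10 higher and 6 lower at 7 days, and 1 higher and 4 lower at 14 days. Of all 12977 tested probes it called 7122 at 7 days (13.6% of them higher) and 6911 at 14 days (14.7%). With quantile normalization Cat rose and Prdx3 fell at 7 days. Thus 1 of 10 probes was called higher and 1 lower, against 10.8% and 8.86% of 12977 tested probes. At 14 days Cat and Sod2 rose and Prdx3 fell, 2 of 10 and 1 of 10, against 11% and 7.81% of tested probes. The arrays did not overlap saline for Cat, Gpx4 (above) and Prdx3 (below) at 7 days, where 11.3% and 11.7% of tested probes lay wholly above and below. At 14 days they did not overlap for Cat, Sod2 (above) and the brightest Prdx2 probe (below), where the shares were 11.7% and 11.4%. The median change of the 10 probes was 0.10 and 0.07, beside -0.08 and -0.08 over all. At 3 days limma called 0 of 10, with 0% of all probes called and 11.1% at an unadjusted p below 0.05. These counts sit near those of all probes.

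**Figure D2:**
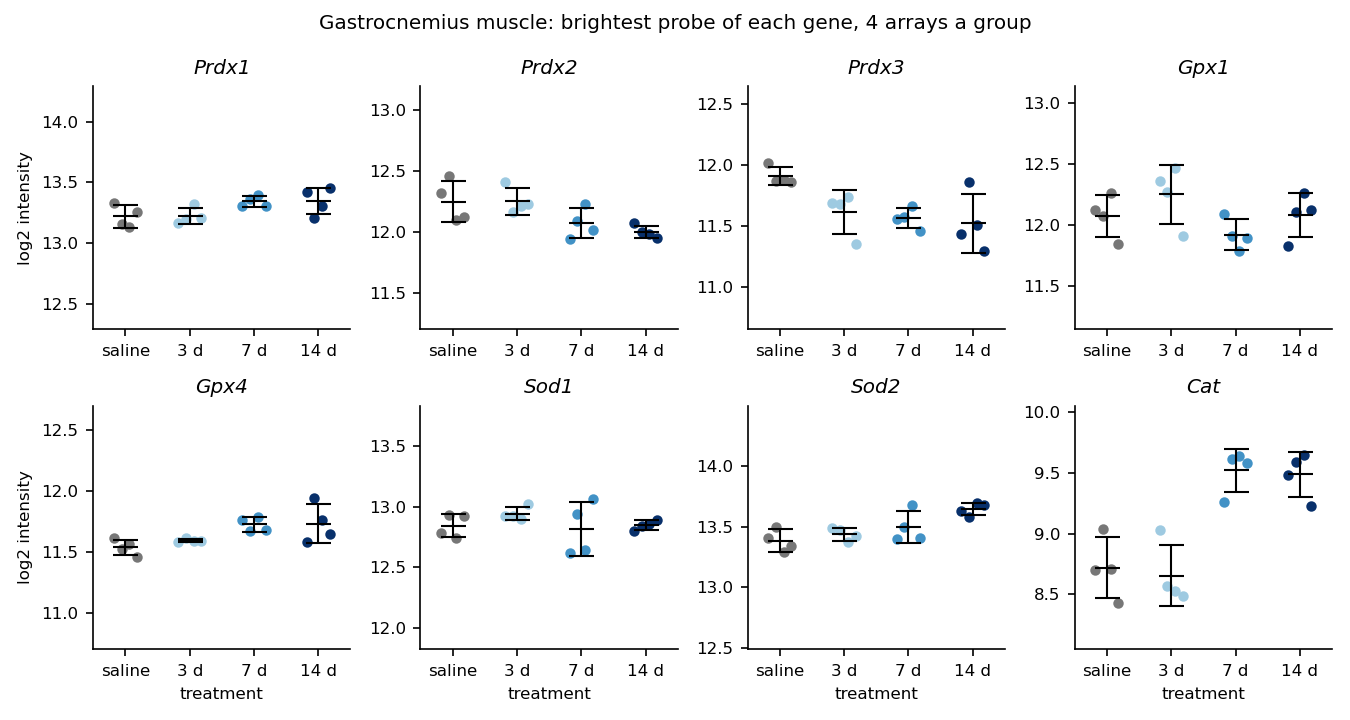
Log2 intensity of the brightest probe of each of 8 genes on the 16 gastrocnemius arrays (points), by treatment, with the mean and SD of the 4 arrays in black; panels span the same height in log2 units. Cat is higher on every array of 7 and 14 days than in saline, and Prdx3 is highest in saline. Sod1 overlaps saline at every duration.

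Cat read 8.70, 9.04, 8.71 and 8.43 in saline muscle, 9.03, 8.57, 8.53 and 8.49 at 3 days, 9.26, 9.61, 9.64 and 9.58 at 7 days, and 9.48, 9.59, 9.65 and 9.23 at 14 days. All arrays of 7 and 14 days were above all arrays of saline and 3 days. It rose by 0.80 ± 0.14 at 7 days (1.75-fold, adjusted p = 0.000712) and 0.77 ± 0.14 at 14 days (1.70-fold, adjusted p = 0.00101). Cat was called in both tissues at 7 and 14 days under all 11 alternative ways of processing and with any array left out.

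Prdx3 read 12.02, 11.87, 11.88 and 11.86 in saline muscle, 11.69, 11.68, 11.74 and 11.35 at 3 days, 11.56, 11.57, 11.66 and 11.46 at 7 days, and 11.43, 11.86, 11.51 and 11.29 at 14 days. The 3- and 7-day arrays were all below saline, as were those of 4.06% of tested probes at 3 days, and at 14 days replicate 2 reached the saline range. The change was -0.29 ± 0.11 at 3 days (adjusted p = 0.368), -0.34 ± 0.11 at 7 days (adjusted p = 0.0417) and -0.38 ± 0.11 at 14 days (adjusted p = 0.0243). The 7-day call was lost with any of its 8 arrays left out, and the 14-day call without 14-day replicate 1, 14-day replicate 4 or saline replicate 1 (adjusted p up to 0.0831). Set against the 3-day arrays in place of saline, the 7- and 14-day changes were -0.05 and -0.09 and neither was called.

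Sod2 read 13.41, 13.50, 13.29 and 13.34 in saline muscle, 13.49, 13.47, 13.37 and 13.42 at 3 days, 13.40, 13.50, 13.68 and 13.41 at 7 days, and 13.63, 13.58, 13.69 and 13.68 at 14 days. The 14-day arrays were all above saline and the 7-day arrays overlapped it. Its 14-day change was 0.26 ± 0.08 (1.20-fold, adjusted p = 0.0278), which turned to -0.07 under median scaling, where all probes shifted by a median of -0.30, so that Sod2 stood 0.23 above that shift. The call was kept in 4 of 8 fits with an array left out. At 7 days the change was 0.11 ± 0.08 (adjusted p = 0.342), and -0.28 under median scaling.

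The other members passed no test in muscle. Sod1 read 12.78, 12.93, 12.74 and 12.92 in saline, 12.62, 12.94, 12.64 and 13.06 at 7 days, and 12.80, 12.84, 12.86 and 12.89 at 14 days. These overlap, with changes of -0.03 (95% interval -0.23 to 0.17) and 0.00 (95% interval -0.20 to 0.20). Prdx1 lay between 13.13 and 13.33 in saline, 13.31 and 13.40 at 7 days, and 13.21 and 13.45 at 14 days, changes of 0.12 ± 0.08 and 0.13 ± 0.08 (adjusted p = 0.266 and 0.247). Gpx4 had 0.19 ± 0.08 and 0.20 ± 0.08 (adjusted p = 0.109 and 0.0952), and its 7-day arrays, 11.67 to 11.79, were all above the saline arrays, 11.46 to 11.61. Gpx1 had -0.15 ± 0.13 and 0.01 ± 0.13. The brightest Prdx2 probe had -0.18 ± 0.09 and -0.25 ± 0.09 (adjusted p = 0.188 and 0.0733), with its 14-day arrays, 11.95 to 12.07, all below the saline arrays, 12.10 to 12.46, while its dimmest had 0.20 ± 0.16 and 0.44 ± 0.16 (adjusted p = 0.378 and 0.058). Between 14 and 7 days limma called 0 of 10, with 0% of all probes called and 4.86% at an unadjusted p below 0.05. Prdx1 probe 2 was detected on 2 of 4 arrays at 14 days, 1 of 4 at 7 days and 0 of 4 in saline.

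In muscle the summed fibre markers were 171251 to 179825 at 14 days and 148041 to 162274 in saline, with Mb (0.46 ± 0.08) and Myh4 (0.42 ± 0.09) higher and 3 of 5 not called. Summed endothelial markers were 1230 to 1370 at 14 days and 1513 to 1638 in saline. Of 3 tested endothelial markers 0 were called higher and 1 lower, with Cdh5 falling by 0.63. Summed macrophage markers overlapped, at 1198 to 1508 and 1293 to 1538, while Adgre1, among 4 macrophage markers with a probe, was higher by 1.12 ± 0.21. Their part in the changes of Cat, Sod2 and Prdx3 was not tested.

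**Figure D3:**
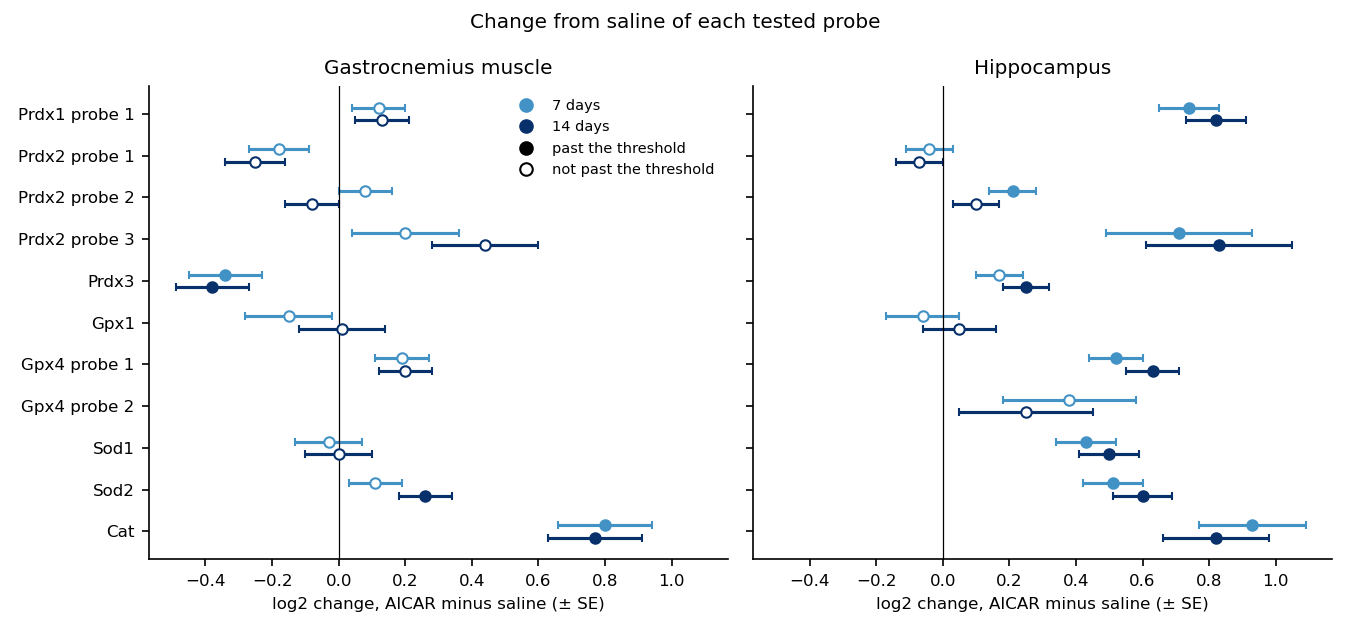
Change from saline in log2 units (points, ± SE) of each tested member probe at 7 days (light) and 14 days (dark) of AICAR, in muscle and hippocampus; filled points passed the threshold. In hippocampus the brightest probes of Prdx1, Gpx4, Sod1, Sod2 and Cat lie between 0.43 and 0.93, with the dim Gpx4 probe at 0.38 and 0.25 and not called, while in muscle only Cat exceeds 0.44, and Prdx3 lies below 0.

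Whether the change from saline differed between the tissues was tested directly, as the muscle change minus the hippocampal change. At 7 days 5 of the 10 probes tested in both tissues had a lower change in muscle, and 0 a higher one, where 9.74% and 7% of the 11315 probes were called. At 14 days the count was again 5 and 0, against 9.4% and 7.09%. The genes were Prdx1, Prdx3, Gpx4, Sod1 and Sod2 at both durations. The median difference was -0.36 at 7 days and -0.36 at 14 days over the members, and -0.05 and -0.06 over all probes. At 3 days limma called 0 of 10, with 0% of all probes called and 8.57% at an unadjusted p below 0.05.

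The largest difference among them was that of Prdx1, -0.61 ± 0.11 at 7 days (adjusted p = 0.000212) and -0.69 ± 0.11 at 14 days (adjusted p = 4.19e-05). For Prdx3 it was -0.51 ± 0.13 (adjusted p = 0.00807) and -0.63 ± 0.13 (adjusted p = 0.0012), the gene being lower than saline in muscle and not in hippocampus. Sod1 had -0.46 ± 0.13 (adjusted p = 0.0121) and -0.50 ± 0.13 (adjusted p = 0.0069). Of these, the call for Gpx4 at 7 days (-0.33 ± 0.11, adjusted p = 0.0395) and that for Sod2 at 14 days (-0.33 ± 0.11, adjusted p = 0.0419) were lost in 9 and 10 of 16 fits with an array left out. Gpx4 at 14 days was -0.44 (adjusted p = 0.00634) and Sod2 at 7 days -0.40 (adjusted p = 0.0138). For Cat no difference was called: -0.13 ± 0.22 at 7 days (95% interval -0.58 to 0.33) and -0.06 ± 0.22 at 14 days (95% interval -0.51 to 0.40). The Cat interval is wide enough to hold a difference of the size seen for Prdx3 at 7 days. When arrays were scaled on the median of the probes detected on all arrays, 2 differences were called at 7 days and 3 at 14 days, and Sod1 (-0.33 at both, adjusted p = 0.0775 and 0.0801) and Sod2 (-0.28 and -0.20) were not among them. With the authors' series values, in units of the array SD, Sod1 was -0.14 and -0.21 (adjusted p = 0.354 and 0.15), Sod2 -0.08 at both durations (adjusted p = 0.545 and 0.52) and Prdx1 at 7 days -0.23 (adjusted p = 0.0561), and none of these was called.

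Without AICAR most members were more abundant in muscle than in hippocampus. With all 32 arrays normalized together, 7 of 11 probes were higher and 2 lower in saline muscle than in saline hippocampus, where 43% and 38.1% of 15321 probes were called higher and lower. The arrays of 9 of the 11 did not overlap between tissues, beside 40% of all probes wholly above and 35.1% wholly below in muscle. Cat averaged 8.74 in saline muscle and 6.18 in saline hippocampus, 2.56 ± 0.16 apart (5.89-fold, adjusted p = 2.11e-15). Its hippocampal signal was near background, and without background correction the difference was 1.45, below that of Sod2 (1.80) in the same setting. Sod2 was 3.64-fold higher in muscle (1.86 ± 0.08, adjusted p = 8.09e-19), Prdx3 3.62-fold (1.86 ± 0.09, adjusted p = 1.35e-17) and Gpx4 3.17-fold (1.66 ± 0.08, adjusted p = 4.38e-18). Prdx1 averaged 13.02 in saline muscle and 11.88 in saline hippocampus, 2.19-fold higher, and Sod1 was 1.55-fold higher (0.64 ± 0.09, adjusted p = 4.01e-07). Prdx2 was lower in muscle on its brighter probes (-0.86 ± 0.08 and -0.75 ± 0.07) and higher on its dimmest (0.67 ± 0.19), and under median scaling the first of these was 0.05. Gpx1 did not pass (-0.06 ± 0.12, adjusted p = 0.661), but it was called higher in muscle under median scaling (0.83) and with each tissue normalized on its own (0.27).

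Over the 8 groups the order of levels differed by gene. For Cat the groups formed 4 steps: saline and 3 days in hippocampus (6.18 and 6.36), 7 and 14 days in hippocampus (7.17 and 7.05), saline and 3 days in muscle (8.74 and 8.68), and 7 and 14 days in muscle (9.49 and 9.46). Arrays of neighbouring groups overlapped within a step and not between steps. For Prdx1 the hippocampal groups of 7 and 14 days, at 12.68 and 12.76, did not overlap each other and stood between hippocampal saline (11.88) and 3 days (11.94) on one side and all muscle groups (13.02 to 13.13) on the other. For Sod1 the hippocampal groups of 7 and 14 days, at 12.48 and 12.56, overlapped their muscle neighbours, of which saline stood at 12.65. Sod2 kept its tissues apart, with hippocampal means of 11.30 to 11.93 and muscle means of 13.16 to 13.39. Prdx3 did so too, at 9.90 to 10.16 and 11.39 to 11.76, with saline the highest muscle group and the lowest hippocampal one. For Gpx1 all neighbours overlapped, with means of 11.77 to 12.09.

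Genes that serve or border the enzymes were read from 8 lists, counted on the brightest probe of each gene. At 3 days 0 genes of any list were called in either tissue. Among partners of thioredoxin and peroxiredoxin, 3 of 8 rose in hippocampus at 14 days and 0 fell, with a list median of 0.16. They were Sesn1, a sestrin (0.73 ± 0.09, adjusted p = 5.36e-05), Txn2, the mitochondrial thioredoxin (0.35), and Txnip, which binds and inhibits thioredoxin (0.37, kept in 1 of 8 fits with an array left out). In muscle 2 of 9 rose at 14 days and 0 fell, with a list median of -0.15. Txn1, cytosolic thioredoxin, rose by 1.44 ± 0.10 (adjusted p = 3.07e-08) and its reductase Txnrd1 by 1.08 ± 0.15 (adjusted p = 3.5e-05), from a probe detected on 4 of 4 arrays at 14 days and 3 of 4 in saline. Srxn1, the sulfiredoxin that repairs overoxidised peroxiredoxins, had -0.05 ± 0.07 in hippocampus and -0.18 ± 0.11 in muscle and was not called.

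For glutathione supply and glutaredoxins, 4 of 10 genes rose in muscle at 14 days and 0 fell, with a list median of 0.29, against 1 and 0 of 10 in hippocampus with a median of 0.06. The muscle genes were Glrx3, a cytosolic glutaredoxin (1.75 ± 0.11, adjusted p = 1.51e-08), Idh2, which makes NADPH in mitochondria (1.28 ± 0.18, adjusted p = 6.91e-05), Glrx2, the mitochondrial glutaredoxin (1.08 ± 0.13, adjusted p = 1.33e-05), and Me1, which makes NADPH in the cytosol (1.02 ± 0.10, adjusted p = 1.62e-06). Me1 alone was called in hippocampus at 14 days (0.56 ± 0.12, adjusted p = 0.00268). Of other glutathione peroxidases and transferases, 2 of 11 rose at 14 days in each tissue, Gstm5 and Gstm1, which conjugate glutathione. They rose by 0.69 and 0.39 in hippocampus and by 0.35 and 0.26 in muscle. The muscle value of Gstm1 turned to -0.06 under median scaling, and its call was kept in 3 of 8 fits with an array left out. The muscle value of Gstm5 was as low as 0.03 over the alternatives, and its call was kept in 6 of 8 such fits. Median scaling also lost the calls of Gstm5 in muscle and of Gstm1 in hippocampus. Medians of that list were 0.25 and -0.20. The named muscle genes of thioredoxin and glutaredoxin kept their calls under all alternatives run and with any array left out.

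The remaining lists held few calls at 14 days. Of superoxide handling genes 0 of 6 rose and 1 fell in hippocampus, and 0 of 7 were called in muscle by limma. The 1 was Cyba, a subunit of NADPH oxidase (-0.40, adjusted p = 0.024, kept in 5 of 8 fits with an array left out). Of 10 NRF2 pathway genes 1 rose in hippocampus, Fth1, a ferritin subunit (0.26, and as low as -0.10 over the alternatives), and 1 fell in muscle, Nqo1 (-0.34, adjusted p = 0.0402, kept in 6 of 11 alternatives and in 2 of 8 fits with an array left out). Of the selenoproteins Selenow rose (0.56) and Selenom fell (-0.50) among 9 in hippocampus. The Selenow call was lost under median scaling and under detected-probe scaling. Selenok alone was called among 8 in muscle (1.5 ± 0.11, adjusted p = 3.31e-08). Of 12 peroxisome genes 3 rose and 3 fell in hippocampus with a median of -0.01, and 0 were called in muscle with a median of 0. Those that rose were Pex19 (0.61) and Pex3 (0.61), which place proteins in the peroxisomal membrane, and Pex13, detected on 3 of 4 arrays at 14 days and 0 of 4 in saline. The falls of Abcd3 (-0.19), Pex11a (-0.22) and Hsd17b4 (-0.20) were kept in 3, 2 and 2 of 8 fits with an array left out. Of 9 genes that follow mitochondrial mass 6 rose and 1 fell in hippocampus with a median of 0.30, among them Cs, citrate synthase (0.53 ± 0.08), Tomm22 (0.47) and Tfam (0.37). Under median scaling 3 rose and 0 fell there, and the calls for Phb2 (0.23) and Hspd1 (0.30) were each kept in 2 of 8 fits with an array left out. In muscle 3 of 9 rose and 0 fell, with a median of 0.14, Hspe1, a mitochondrial chaperonin, by 1.07 ± 0.09, Vdac2 by 0.65 and Hspd1 by 0.48. Under median scaling 2 of these 9 were called higher and 3 lower in muscle, and the Hspd1 call was lost. That scaling also called 4 superoxide handling, 6 NRF2 pathway, 4 selenoprotein and 4 peroxisome genes lower in muscle at 14 days. The share of all probes called at 14 days was 13.7% higher and 15.9% lower in hippocampus, and 11% and 7.81% in muscle.

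**Figure D4:**
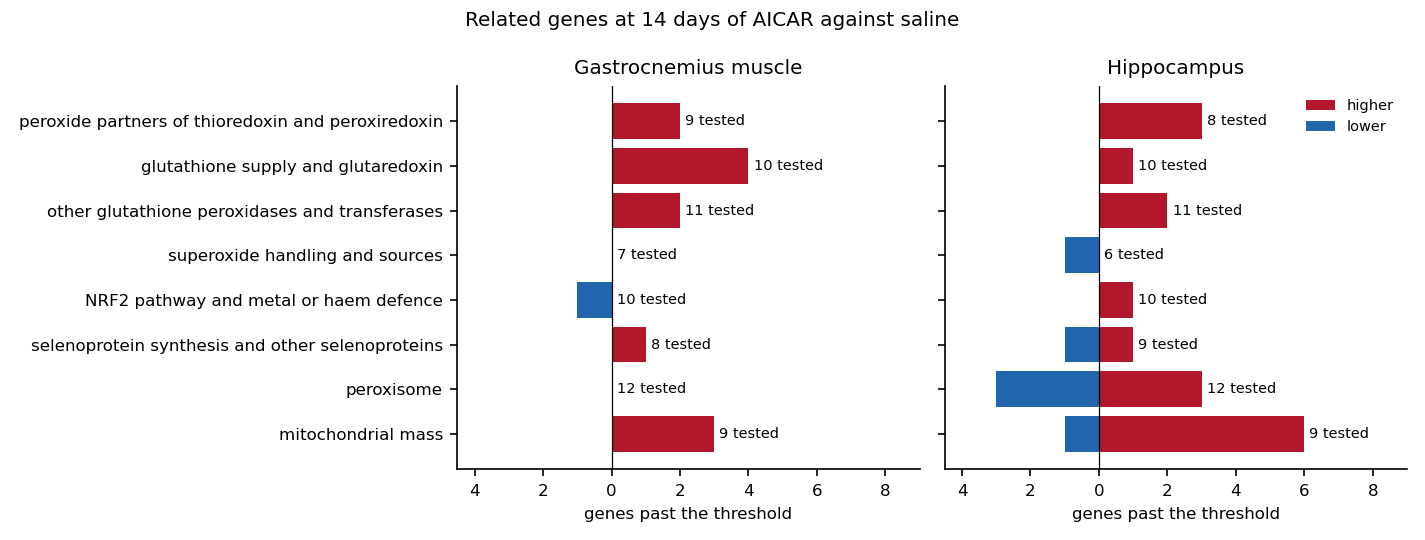
Number of genes called higher (red, right of 0) and lower (blue, left of 0) at 14 days of AICAR against saline in each of 8 related lists, with the number tested beside each bar, for muscle and hippocampus. The glutathione supply list has 4 genes higher in muscle and 1 in hippocampus, and the mitochondrial list 3 and 6. Under median scaling the glutathione supply list has 5 higher and 2 lower in muscle, and each other muscle list has more genes lower than higher.

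How the members varied among arrays within groups was described after subtracting each group mean. Over the 28 pairs of the 8 genes in each tissue, Pearson r was above 0 in 16 pairs in muscle and 16 in hippocampus. It ran from -0.49 to 0.76 in muscle (median 0.03) and from -0.63 to 0.65 in hippocampus (median 0.10), over 16 arrays that share normalization and groups. In muscle the highest r joined Prdx2 with Sod2 and with Cat, and in hippocampus Prdx2 with Gpx1, while Gpx1 and Sod2 gave the lowest. Among 12870 named probes in hippocampus, those most like Sod1 within groups were Tmem208 (r = 0.95), Ptpn21 (0.93) and Cops7a (0.92). Those most like Prdx1 were Pon2 (0.88), Lgals4 (0.88) and Mgst1 (0.87), and those most like Cat were Piwil1 (0.87), Tle1 (0.85) and a Srxn1 probe (0.83). Among 12235 probes in muscle, Nox4 (0.91) was most like Prdx3, Gng2 (0.88) most like Cat and Abcb8 (0.91) most like Sod2. With so many candidates over 16 arrays, these are a description only.

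**Figure D5:**
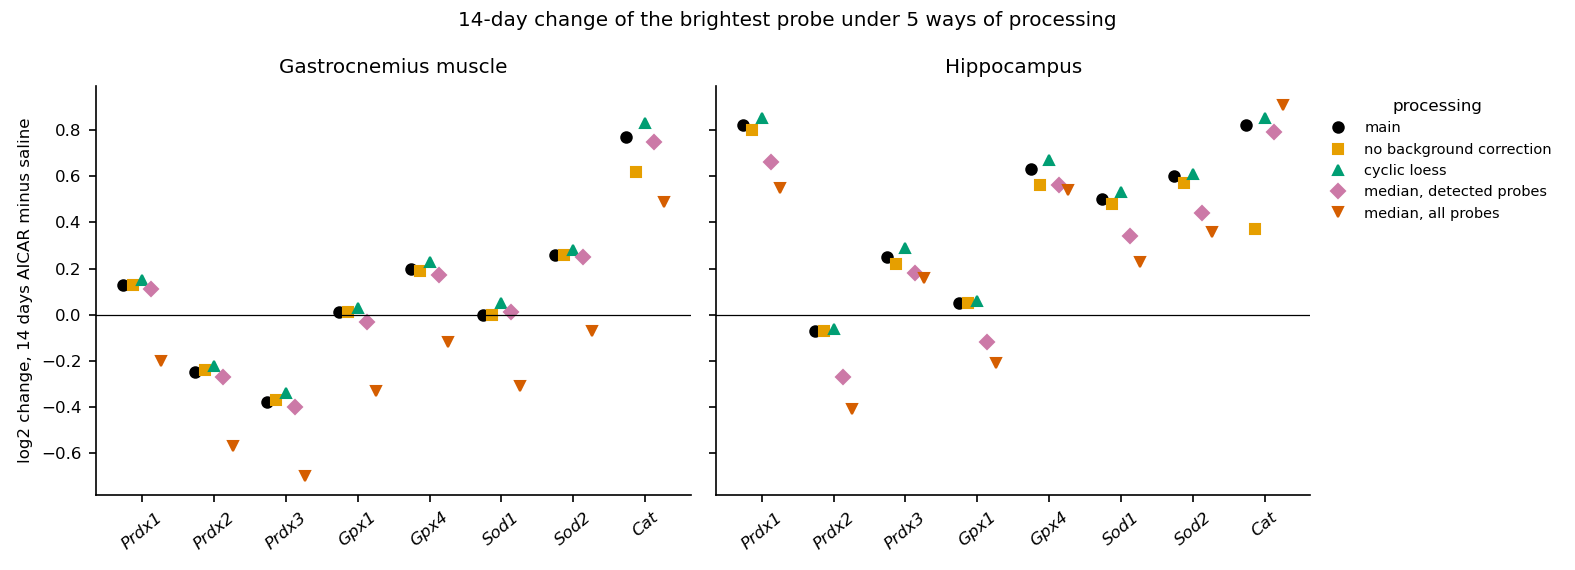
Change at 14 days of AICAR against saline in log2 units, for the brightest probe of each gene, under 5 ways of processing (symbols), in muscle and hippocampus. In hippocampus Prdx1, Prdx3, Gpx4, Sod1, Sod2 and Cat stay above 0 throughout, from 0.16 for Prdx3 to 0.91 for Cat; in muscle median scaling over all probes moves Prdx1, Gpx4 and Sod2 below 0, and only Cat stays clearly above.

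The changes called at both 7 and 14 days under all alternatives run, and with any array left out, were those of Prdx1, Gpx4 and Cat in hippocampus and of Cat in muscle, though their sizes moved. Under the 11 alternatives the 14-day change was 0.55 to 0.85 for Prdx1, 0.38 to 0.67 for Gpx4 and 0.37 to 0.91 for Cat in hippocampus, and 0.49 to 0.83 for Cat in muscle, on the log2 scale and leaving aside the standardized series values. At 7 days the ranges for the same 4 changes were 0.55 to 0.75, 0.26 to 0.56, 0.42 to 1.11 and 0.49 to 0.87.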

How the data were processed

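Expression was measured on 32 single-channel Illumina MouseRef-8 bead arrays, 4 for each treatment in each of 2 tissues. The authors' deposited table gives the raw intensity of each probe, on a linear scale, and beside it a detection p-value against the negative controls of the array. BeadStudio 1.6.0 is named in the submitters' processing notes. The series values that the authors deposited are a score, namely log2 intensities centred on the array mean and put in units of the array SD, as a comparison of both files showed. Symbols come from the platform table: 23978 of 25697 probes have 1 symbol, 1719 none and none has several, and 23962 matched RefSeq by Entrez ID with 0 symbols changed. Columns of other samples numbered 0.

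From the intensities, limma 3.58.1 in R 4.3.3 gave normexp background correction (neqc, offset 16), quantile normalization within each tissue and log2 values. Testing covered probes with a detection p under 0.05 on 4 or more of 16 arrays, with 1 mean per group, two-sided, adjusted by Benjamini and Hochberg over all tested probes and called below 0.05. Tissue differences used 1 fit of all 32 arrays with no term for the animal. The tissue comparison in saline, the order of the 8 groups and the marker sums used all 32 arrays normalized together. The number of arrays limits the precision. All member probes are reported, and from each related list up to 4 genes with the smallest p at 14 days. Further genes named where a count was 5 or fewer were chosen after their values were seen. Likeness takes the 3 highest r per member, given in part. Members and lists were chosen with earlier results of these data known. Same-numbered arrays of different treatments within a tissue correlated between -0.37 and 0.19, and numbers were not taken as pairs. Arrays of different tissues were not compared in this way, so it does not show whether tissues share animals.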

Additional observations from a re-analysis of the deposited data

Results flagged for a closer look

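In the direct test, 5 genes were called as changing differently in muscle and in hippocampus. By probe, 5 of 10 were called lower at each duration, against 9.74% of all probes at 7 days and 9.4% at 14 days. The calls for Gpx4 at 7 days and Sod2 at 14 days were kept in 7 and 6 of 16 fits with an array left out. Under detected-probe scaling 2 differences were called at 7 days and 3 at 14 days. The muscle minus hippocampus difference at 7 days was -0.61 for Prdx1, -0.51 for Prdx3, -0.33 for Gpx4, -0.46 for Sod1 and -0.40 for Sod2. At 14 days it was -0.69 for Prdx1, -0.63 for Prdx3, -0.44 for Gpx4, -0.50 for Sod1 and -0.33 for Sod2. In hippocampus these genes were called higher than saline at 14 days, while in muscle Sod2 was called higher, Prdx3 lower and the other 3 were not called.

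In 5 of 84 probe and group combinations, 1 array lay far from the other 3, and chance gives about 1 in 20. Prdx3 in muscle at 3 days was 11.35 on replicate 4 and 11.68 to 11.74 on the others. Prdx3 in saline muscle was 12.02 on replicate 1 and 11.86 to 11.88 on the others. Sod1 in muscle at 3 days was 13.02 on replicate 4 and 12.90 to 12.92 on the others. Cat in muscle at 3 days was 9.03 on replicate 1 and 8.49 to 8.57 on the others. Cat in muscle at 7 days was 9.26 on replicate 1 and 9.58 to 9.64 on the others. All 5 were muscle arrays. The 14-day call of Prdx3 in muscle was lost without saline replicate 1, and likewise without 14-day replicate 1 or 4.

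Outside the tested probes, the dim Prdx1 probe 2 was detected in muscle on 1 of 4 arrays at 7 days and 2 of 4 at 14 days, against 0 of 4 in saline.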

How the results depend on the processing

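In hippocampus the number of member probes called was 6 to 8 at 7 days and 5 to 7 at 14 days over 11 alternatives, and 5 to 6 and 6 to 7 with an array left out. Under median scaling 5 were higher and 1 lower at 7 days and 4 higher and 1 lower at 14 days, and under detected-probe scaling 6 higher and 1 lower at each, against 7 higher and 0 lower as reported. In muscle at 7 days, where 2 were called, the count was 7 under median scaling (1 higher, 6 lower), 5 with the authors' series values (4 higher, 1 lower) and 1 each without the filter on dim probes, under cyclic loess and against the 3-day group, and 1 whichever array was left out. At 14 days, where 3 were called, it was 5 without background correction and with trended and robust variance (3 higher, 2 lower each), 5 under median scaling (1 higher, 4 lower) and 5 with the authors' series values (4 higher, 1 lower), and 2 to 4 with an array left out. For the difference between tissues, 5 at each duration, it was 8 at 7 days under median scaling, 2 at 7 days and 3 at 14 days under median scaling over detected probes, and 4 to 5 with an array left out. In saline it was 9 with any array left out.

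Median scaling turned several muscle changes, Prdx1 at 7 days to -0.29, Sod2 at 7 days to -0.28 and at 14 days to -0.07, and Sod1 at 14 days to -0.31. All tested probes shifted by a median of -0.31 and -0.30 there. In saline it turned muscle against hippocampus to 0.05 for Prdx2 probe 1 and 0.83 for Gpx1, and Gpx1 was 0.27 with each tissue normalized on its own. The causes were not tested. Median scaling called 7122 and 6911 of all muscle probes at 7 and 14 days (13.6% and 14.7% of them higher), and the series values 4043 and 3784 (36.8% and 38.9%), against 2558 and 2441 (55% and 58.5%) as reported. Of the calls, 73.5% and 76.7% were higher under cyclic loess. In hippocampus 71% of 7-day calls were higher under median scaling and 29.2% and 31.7% at 7 and 14 days under detected-probe scaling, against 48.3% and 46.2%. For the tissue difference median scaling called 4855 and 3068 of all probes (7.2% and 13.4% higher), the series values 3154 at 7 days (30.4%), and detected-probe scaling gave 63.9% and 62.6% higher, against 41.8% and 43%.

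Cyclic loess, detected-probe scaling and the 3-day group as reference were added after seeing the data. With a replicate block, hippocampus had 6 and 7 called at 7 and 14 days, muscle 2 and 2, the tissue difference 4 and 4 and saline 9. The numbers in the labels name samples and show no pairing.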

Other observations

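Other cell type markers were counted at 14 days. Of 4 oligodendrocyte markers 0 were called in hippocampus by limma, with summed intensities of 36389 to 43763 at 14 days and 35367 to 42453 in saline. Of 5 astrocyte markers 4 had a tested probe in muscle and 0 were called. Summed red blood cell markers in muscle were 521 to 3773 at 14 days, 1588 to 6422 at 7 days and 453 to 4165 in saline, and Hbb-bt was higher at 7 days by 2.26 ± 0.59 (limma adjusted p = 0.0122), from a probe detected on 4 of 4 arrays at 7 days and 2 of 4 in saline.

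The related genes were also compared at 7 days. Sesn1 was higher by 0.66 ± 0.09 in hippocampus (limma adjusted p = 0.000153). In muscle Glrx3 was higher by 1.61 ± 0.11, Selenok by 1.47 ± 0.11, Txn1 by 1.31 ± 0.10, Txnrd1 by 1.18 ± 0.15 and Hspe1 by 1.17 ± 0.09. These comparisons share their saline arrays with those at 14 days.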
